A study of Mus musculus with 67 samples.

Results

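The primitive endoderm of the E4.5 mouse blastocyst was compared with the inner cell mass of the E3.5 blastocyst, across all genes. The members were chosen by their titles: the 3 libraries titled PrE at E4.5 and the 3 libraries titled ICM at E3.5, 6 of the 67 libraries in the series. All were wild-type Smart-seq2 RNA libraries, each amplified over 17 PCR cycles from about 10 to 100 cells of embryos from natural matings. Lineages were isolated with the help of a mouse line in which the Pdgfra promoter drives EGFP, so the level of Pdgfra between lineages of the same day is not an independent result. The study as a whole followed 23 groups of embryonic tissue through implantation and addressed how bivalent chromatin, which carries both an activating and a repressive histone mark, is remodelled. Primitive endoderm of E4.75 and epiblast of E4.5 (3 libraries each) were used only to show where the E4.5 primitive endoderm differed from its nearest stage and its sister lineage. Whether the E4.5 embryos were cultured is not stated. Cells of E3.5 embryos were dissociated in calcium-free medium after removal of the zona pellucida, whereas embryos of the peri-implantation stages were digested with trypsin, so age and handling cannot be told apart in this comparison.

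In the mouse blastocyst the inner cell mass contains intermingled precursors of the epiblast, marked by Nanog, and of the primitive endoderm, marked by Gata6. FGF4 from the epiblast precursors, acting through FGF receptors and ERK signalling, directs cells to the primitive endoderm, which then activates Sox17, Gata4 and Sox7 in turn and sorts to the surface facing the blastocoel. There it becomes an epithelium that deposits a basement membrane, takes up maternal proteins by endocytosis and gives rise to the visceral and parietal endoderm of the yolk sac.

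Values are TPM (transcript abundance scaled by gene length and library total). The ribosomal precursor gene Rn45s was removed and each library rescaled to the same sum. Differences are log2 differences of TPM + 1 with their standard errors, n = 3 libraries in each group. Unless another fit is named, standard errors and adjusted p come from a limma fit that pools each gene's spread over all 23 groups. They do not measure the spread of the compared libraries alone, and can understate it for genes uneven within PrE E4.5. That spread is to be read from the library values. Sequencing depth cannot be recovered from TPM, and a gene given as 0 is only listed at 0. A gene was called higher or lower when limma's adjusted p, taken over all 15699 genes tested, was under 0.05 and the absolute log2 difference was at least 1. In PrE E4.5 2480 genes (15.8%) were called higher and 2945 (18.8%) lower than in ICM E3.5, together 34.6% of those tested. Counts within each gene list below are to be read beside these shares. For PrE E4.5 against the E4.5 epiblast (Epi E4.5) the shares were 11.4% higher and 19.2% lower. Of the genes called lower, 700 were listed at 0 in all 3 PrE E4.5 libraries, and of the genes called higher 185 were listed at 0 in all 3 ICM E3.5 libraries. In these pooled samples fewer cells of a type and less RNA per cell cannot be told apart, which applies above all to genes of the epiblast precursors that only the inner cell mass contains.

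The PrE E4.5 libraries detected fewer genes and varied more than those of the inner cell mass. Between 9052 and 10117 genes reached 1 TPM in PrE E4.5, against 10484 to 10606 in ICM E3.5. Pearson correlations of log2(TPM + 1) across genes were 0.924 to 0.941 among the PrE E4.5 libraries and 0.983 to 0.985 among the ICM E3.5 libraries. In PrE E4.5 308 genes were listed at 0 in at least 1 library while reaching 10 TPM in another, against 1 such gene in ICM E3.5, 347 in Epi E4.5 and 0 in PrE E4.75. Rn45s made up 15.1% to 20.8% of the deposited TPM in PrE E4.5 and 18.6% to 24.8% in Epi E4.5, but 0.814% to 1.10% in PrE E4.75 and 0.526% to 0.601% in ICM E3.5. The part of these library properties in the differences from ICM E3.5 was not tested, and the same-day epiblast, which shares the high Rn45s share, is therefore given beside the main gene groups. Between PrE E4.5 and Epi E4.5 1786 genes (11.4%) were called higher and 3022 (19.2%) lower, and 2232 and 2259 after quantile normalization. In Epi E4.5 replicate 1 3307 genes were listed at 0, against 13659 and 12723 in the other two, and without it 1880 genes were called higher and 2703 lower in PrE E4.5.

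Of the 3 genes that mark the lineage, Sox17 and Gata6 were at the same order of magnitude in both groups and Pdgfra was lower in the primitive endoderm. Sox17, a transcription factor of the endoderm (chromosome 1, 4490928 to 4497426, GRCm38), had 48.9, 77.3 and 57.6 TPM in PrE E4.5, against 41.9, 53.1 and 37.8 TPM in ICM E3.5, and the groups overlapped (log2 0.45 ± 0.34, adjusted p = 0.33). Gata6, the GATA factor that initiates the lineage, had 18.4, 13.1 and 22.8 TPM in PrE E4.5, against 20.0, 13.3 and 21.7 TPM in ICM E3.5. These ranges almost coincide (log2 -0.03 ± 0.34). Pdgfra, the receptor gene of the reporter (chromosome 5, 75151322 to 75198206, GRCm38), had 6.60, 10.6 and 3.26 TPM in PrE E4.5, against 13.1, 15.2 and 20.1 TPM in ICM E3.5. All 3 PrE E4.5 values lay below all 3 ICM E3.5 values (log2 -1.23 ± 0.34, adjusted p = 0.0021), but the call rested on PrE E4.5 replicate 3 (without it log2 -0.85, adjusted p = 0.052) and was lost in a fit of the 6 libraries alone (adjusted p = 0.093). Against the same-day epiblast, Sox17 and Gata6 were higher in PrE E4.5: Epi E4.5 had 8.59, 2.32 and 14.1 TPM of Sox17 (log2 2.97 ± 0.34, adjusted p = 3.7e-10) and at most 2.39 TPM of Gata6 (log2 3.43 ± 0.34, adjusted p = 2.5e-12). In PrE E4.75 Pdgfra was at 15.4 to 20.5 TPM and was called higher than in PrE E4.5 (log2 1.37 ± 0.34, adjusted p = 0.0012).

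**Figure D1:**
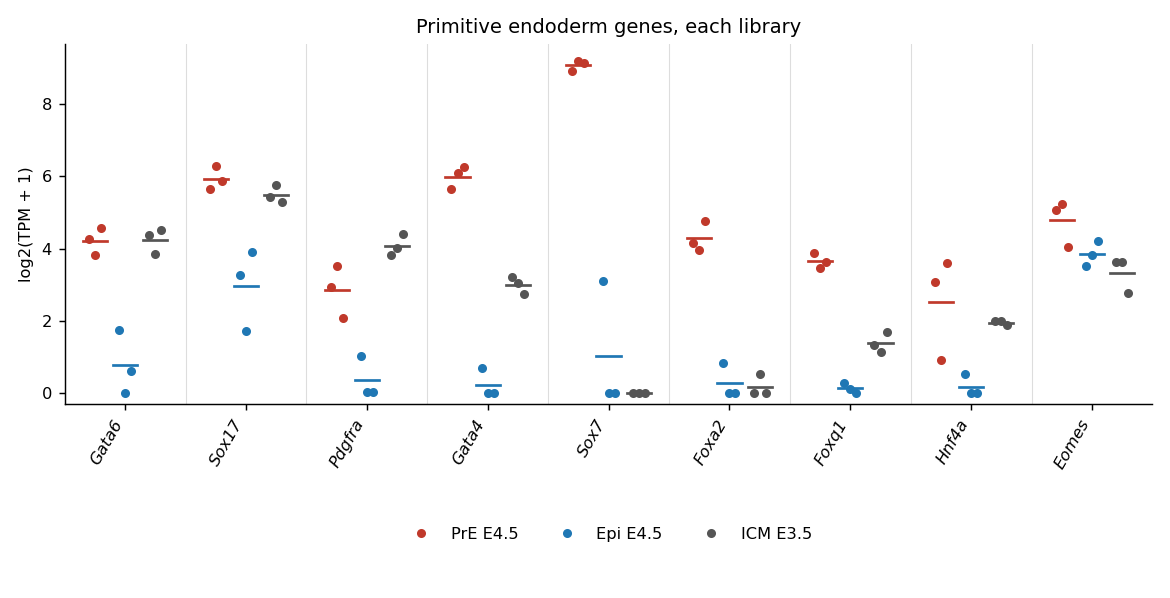
Levels of primitive endoderm genes as log2(TPM + 1), 1 point per library and a line at each group's mean (3 libraries each). Gata6 and Sox17 overlap between PrE E4.5 and ICM E3.5, whereas Gata4, Sox7, Foxa2 and Foxq1 lie higher in every PrE E4.5 library than in any library of ICM E3.5.

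Of 12 tested transcription factors of the lineage 6 rose and 0 fell, with a median log2 difference of 1.04 against -0.03 over all genes. Up to 2 members were called lower under another pseudocount, scaling or weighting, and 1 without PrE E4.5 replicate 1 or 2 or ICM E3.5 replicate 1 or 2. Sox7, which acts after Sox17 in the lineage, had 480, 585 and 562 TPM in PrE E4.5 and was listed at 0 in all 3 ICM E3.5 libraries. Gata4, the second GATA factor of the lineage, had 49.2, 66.4 and 75.0 TPM in PrE E4.5, against 8.30, 7.29 and 5.67 TPM in ICM E3.5 (log2 2.99 ± 0.33, adjusted p = 3.7e-11). Foxa2, a forkhead factor of definitive and visceral endoderm, had 16.7, 14.7 and 26.2 TPM in PrE E4.5, against 0, 0.438 and 0 TPM in ICM E3.5 (log2 4.12 ± 0.41, adjusted p = 2.5e-12). Foxq1 rose to 13.6, 10.0 and 11.3 TPM in PrE E4.5, against 1.53, 1.21 and 2.27 TPM in ICM E3.5 (log2 2.25 ± 0.33, adjusted p = 9.4e-08). None of these groups overlapped. Eomes, a T-box factor also used by trophoblast, was higher as well (log2 1.44 ± 0.25, adjusted p = 2.5e-06), but its call was lost in a fit of the 6 libraries alone (adjusted p = 0.061). Hnf4a, a nuclear receptor of the mature visceral endoderm, was uneven, with 7.40, 0.883 and 11.2 TPM in PrE E4.5, against 2.97, 2.99 and 2.68 TPM in ICM E3.5, and was not called (adjusted p = 0.28); without PrE E4.5 replicate 2 it passed (log2 1.38, adjusted p = 0.0026).

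Against PrE E4.5, Sox7 was lower at the next stage, with 46.9, 49.9 and 52.1 TPM in PrE E4.75 (log2 -3.42 ± 0.41, adjusted p = 1.6e-09). Foxq1 and Hnf4a were higher in PrE E4.75, with log2 differences of 2.15 ± 0.33 (adjusted p = 7.0e-07) and 1.68 ± 0.41 (adjusted p = 0.0011). Across all genes 2084 (13.3%) were called higher and 1100 (7.01%) lower in PrE E4.75 than in PrE E4.5, together 20.3%. That balance depended on scaling, with 1629 higher and 1262 lower after quantile normalization and 2538 higher and 836 lower with Rn45s kept.

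The 12 genes of largest rise and the 12 of largest fall were taken by size of the log2 difference from called, named genes whose groups did not overlap and whose higher group averaged at least 20 TPM, so their direction is a matter of choice and not a finding. Those that rose most were Sox7, Amn, Srgn, Cubn, Fhl1, Tfec, Car7, Car4, Cldn6, Pga5, Soat2 and AA986860. Srgn, which encodes the proteoglycan core protein serglycin, had 3199, 3035 and 2980 TPM in PrE E4.5, against 2.45, 7.57 and 7.99 TPM in ICM E3.5 (log2 8.90 ± 0.40, adjusted p = 1.2e-25). Cldn6, a tight-junction claudin, had 2288, 2615 and 2694 TPM in PrE E4.5, against 8.11, 8.61 and 14.6 TPM in ICM E3.5 (log2 7.83 ± 0.14, adjusted p = 1.5e-42). Pga5, a pepsinogen, had 1536, 1603 and 1683 TPM in PrE E4.5, against 6.69, 5.45 and 6.09 TPM in ICM E3.5 (log2 7.83 ± 0.44, adjusted p = 1.6e-21). The lowest of these PrE E4.5 values was 1536 TPM (Pga5), against a highest ICM E3.5 value of 14.6 TPM (Cldn6). Tfec, a transcription factor of the family of lysosomal regulators, had 279, 252 and 285 TPM in PrE E4.5 and was listed at 0 in ICM E3.5. Soat2, which esterifies cholesterol, had 314, 292 and 228 TPM in PrE E4.5, against 0.934, 0 and 0 TPM in ICM E3.5 (log2 7.79 ± 0.39, adjusted p = 1.2e-23). All 12 were also called higher than in Epi E4.5.

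The 12 genes of largest fall were Khdc3, Bhmt, Calcoco2, Crxos, Dppa3, Spic, Tdgf1, AA467197, Nanog, Pramel6, Trim43a and Tat. Khdc3, a maternal-effect gene of the subcortical complex of the egg, had 0, 0 and 0.427 TPM in PrE E4.5, against 4683, 4504 and 4621 TPM in ICM E3.5 (log2 -12.00 ± 0.37, adjusted p = 6.7e-33). Bhmt, which remethylates homocysteine with betaine, was listed at 0 in PrE E4.5, against 2699, 2473 and 2565 TPM in ICM E3.5. Dppa3, also known as Stella, had 1.80, 5.77 and 6.85 TPM in PrE E4.5, against 6369, 5998 and 6176 TPM in ICM E3.5 (log2 -10.19 ± 0.47, adjusted p = 4.6e-25). These 3 transcripts had at least 2473 TPM in every ICM E3.5 library and at most 6.85 TPM in any PrE E4.5 library. Bhmt was also listed at 0 in all 3 Epi E4.5 libraries, and Khdc3 had 90.0, 144 and 130 TPM and Dppa3 54.2, 57.8 and 44.9 TPM there. Trim43a and Pramel6 belong to families of near-identical copies, so how reads were shared among copies is uncertain for them.

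**Figure D2:**
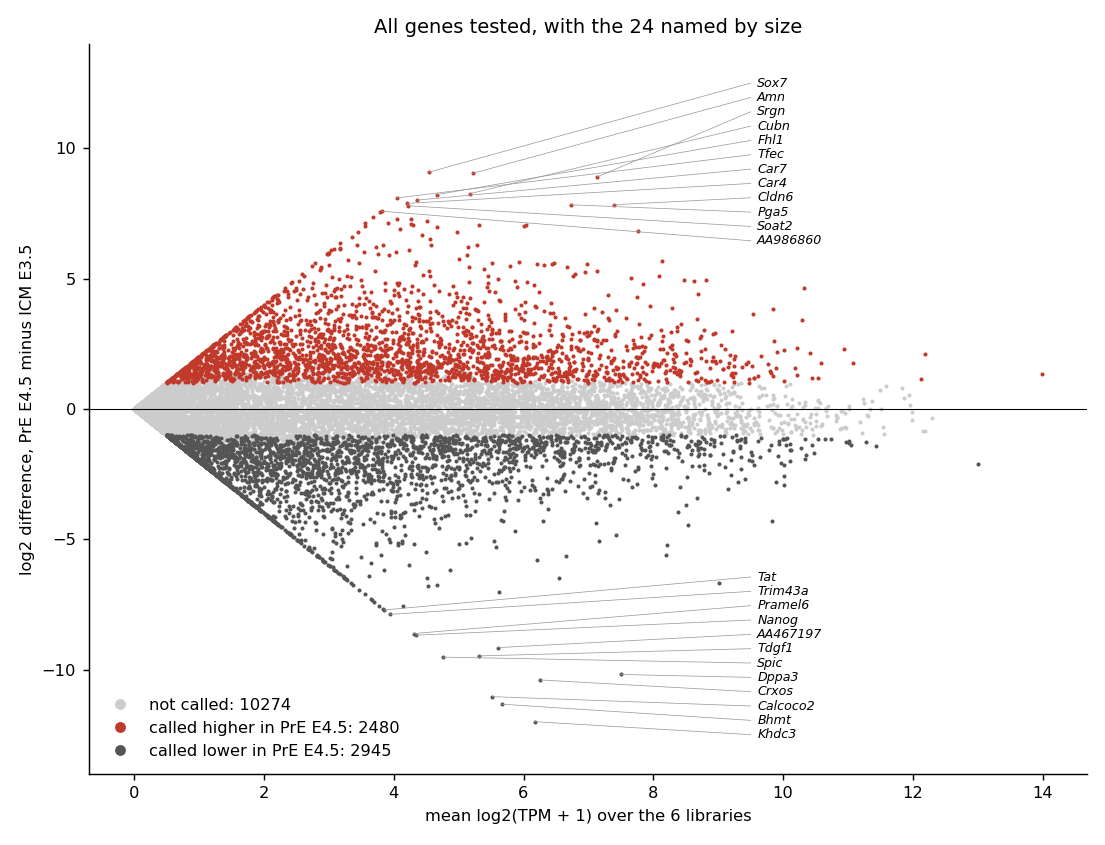
Log2 difference (PrE E4.5 minus ICM E3.5) against the mean log2(TPM + 1) of the 6 libraries for the 15699 genes tested, with the 12 genes of largest rise and the 12 of largest fall named. The 2480 genes called higher and 2945 called lower are coloured, and the points along the 2 oblique edges are genes listed at 0 in every library of one group.

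Pluripotency genes fell together. Of 15 naive pluripotency genes 14 fell and 0 rose (median log2 -2.90), and of 10 core genes 7 fell and 1, Lin28a, rose (median log2 -3.24), against a median of -0.03 over all genes. Nanog, which opposes Gata6, was listed at 0 in all 3 PrE E4.5 libraries, against 403, 395 and 433 TPM in ICM E3.5. Sox2, the partner of OCT4, was also listed at 0 in PrE E4.5, against 8.08, 13.6 and 10.0 TPM in ICM E3.5. Pou5f1, which encodes OCT4, had 12.7, 0 and 13.1 TPM in PrE E4.5, against 187, 216 and 212 TPM in ICM E3.5 (log2 -5.15 ± 0.43, adjusted p = 4.5e-15). Klf2, a naive Kruppel-like factor, had 0, 0 and 0.109 TPM in PrE E4.5, against 34.9, 39.7 and 44.2 TPM in ICM E3.5 (log2 -5.29 ± 0.35, adjusted p = 9.9e-19). Zfp42, which encodes REX1, kept a measurable level, with 59.3, 60.5 and 48.2 TPM in PrE E4.5, against 341, 325 and 319 TPM in ICM E3.5 (log2 -2.54 ± 0.24, adjusted p = 5.0e-13). Nr0b1, the 1 naive gene not called, had at most 3.54 TPM in any of the 6 libraries. Utf1 and Sall4, the 2 core genes not called, were abundant in both groups: Utf1 had 867, 1426 and 928 TPM in PrE E4.5, against 827, 797 and 788 TPM in ICM E3.5, and Sall4 had 318, 273 and 265 TPM in PrE E4.5, against 179, 181 and 185 TPM in ICM E3.5 (adjusted p = 0.062 and 0.069). Against Epi E4.5, in which Nanog stood at 247 to 391 TPM, 14 naive and 8 core genes were lower in PrE E4.5.

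Formative and primed pluripotency genes, which follow the naive state in the epiblast, rose in 6 of 14 cases and fell in 2, against 3 and 0 with the 6 libraries alone. Pim2, a serine/threonine kinase, had 101, 165 and 80.4 TPM in PrE E4.5, against 19.8, 14.7 and 15.5 TPM in ICM E3.5 (log2 2.67 ± 0.33, adjusted p = 9.9e-10). Against Epi E4.5 1 member was higher and 9 lower in PrE E4.5, or 10 lower without Epi E4.5 replicate 1.

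Markers of other tissues that the samples could hold were mostly lower or not called. Of 14 trophectoderm markers 5 fell and 1 rose, the last being Eomes (8 fell with a pseudocount of 0.1 TPM), and the defining factors Cdx2 and Elf5 were listed at 0 in all 3 PrE E4.5 libraries. Gata3 had 3.71, 0 and 0 TPM in PrE E4.5, against 25.4, 18.7 and 15.6 TPM in ICM E3.5 (log2 -3.61 ± 0.72, adjusted p = 3.4e-05). Keratin genes Krt8 and Krt18 were lower in PrE E4.5 by 2.09 ± 0.28 and 1.06 ± 0.15 on the log2 scale. For Krt18 the call was lost without PrE E4.5 replicate 1 or 3, where the difference fell just under the minimum of 1. The summed level of the trophectoderm list was 228 to 324 TPM in PrE E4.5, against 538 to 627 TPM in ICM E3.5. Of 6 blood markers in the table the summed level was at most 1.19 TPM in PrE E4.5 and 0.718 TPM in ICM E3.5, and 5 were listed at 0 in all libraries of each group. Of 7 uterine stroma markers the summed level was at most 0.994 TPM in PrE E4.5 and 0.678 TPM in ICM E3.5. None of the 2 blood and 3 uterine markers that passed the filter on low values was called.

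Genes of receptor-mediated endocytosis were among the clearest gains. Of 12 tested members 8 rose and 1, Rab5a, fell, with a median log2 difference of 2.02. Cubilin and amnionless together form the cubam receptor, megalin (Lrp2) is its co-receptor, and Dab2 is the adaptor that links them to clathrin. Cubn had 800, 428 and 733 TPM in PrE E4.5, against 0.586, 1.42 and 1.29 TPM in ICM E3.5 (log2 8.26 ± 0.34, adjusted p = 6.8e-27). Amn had 766, 978 and 827 TPM in PrE E4.5, against 1.15, 0.987 and 0 TPM in ICM E3.5 (log2 9.04 ± 0.45, adjusted p = 1.3e-23). Length-scaled levels of the 2 subunit genes were thus of the same order in PrE E4.5, but replicate 2 had 428 TPM of Cubn and 978 TPM of Amn. Lrp2 had 291, 256 and 307 TPM in PrE E4.5, against 1.31, 1.41 and 1.09 TPM in ICM E3.5 (log2 6.97 ± 0.26, adjusted p = 4.8e-29). Dab2 had 2853, 1768 and 2530 TPM in PrE E4.5, against 16.4, 19.0 and 23.2 TPM in ICM E3.5 (log2 6.84 ± 0.29, adjusted p = 1.6e-26). For all 4 genes no ICM E3.5 library came near any PrE E4.5 library, and all 4 were also called higher than in Epi E4.5. Rab11a, of recycling endosomes, rose to 1849, 1434 and 1701 TPM in PrE E4.5, against 216, 201 and 213 TPM in ICM E3.5 (log2 2.97 ± 0.14, adjusted p = 3.4e-24). Rab5a, of early endosomes, had 39.0, 28.1 and 81.1 TPM in PrE E4.5, against 106, 101 and 130 TPM in ICM E3.5 (log2 -1.30 ± 0.34, adjusted p = 0.0012); its call was lost without PrE E4.5 replicate 2 (log2 -0.97) and in a fit of the 6 libraries alone (adjusted p = 0.074).

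Because these 4 genes of one receptor complex moved together, the 250 bases before the start given in RefSeq's promoter table are shown, 5′ to 3′ on the gene's strand, from RefSeq on GRCm38.p6; capitals mark GATAA or its reverse complement TTATC, the core that GATA factors bind. The windows are chr2:13491877-13492126 (minus strand) for Cubn, chr12:111270846-111271095 (plus strand) for Amn, chr2:69586030-69586279 (minus strand) for Lrp2 and chr15:6299539-6299788 (plus strand), the first of 2 annotated starts, for Dab2, whose window ends on the first base of the gene record.
Cubn: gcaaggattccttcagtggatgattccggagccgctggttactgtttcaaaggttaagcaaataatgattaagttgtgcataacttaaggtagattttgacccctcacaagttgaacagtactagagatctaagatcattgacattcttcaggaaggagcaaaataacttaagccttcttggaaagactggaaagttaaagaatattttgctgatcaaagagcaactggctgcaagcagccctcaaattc
Amn: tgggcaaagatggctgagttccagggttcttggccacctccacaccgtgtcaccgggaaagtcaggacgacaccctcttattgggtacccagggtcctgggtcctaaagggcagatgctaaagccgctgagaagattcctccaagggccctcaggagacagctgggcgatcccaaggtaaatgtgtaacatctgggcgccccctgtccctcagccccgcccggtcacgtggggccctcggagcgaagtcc
Lrp2: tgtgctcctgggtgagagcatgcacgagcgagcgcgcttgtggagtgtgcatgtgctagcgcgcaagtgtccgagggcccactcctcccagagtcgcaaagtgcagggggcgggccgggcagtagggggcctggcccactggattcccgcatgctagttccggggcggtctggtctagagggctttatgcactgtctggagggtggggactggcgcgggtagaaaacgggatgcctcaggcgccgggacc
Dab2: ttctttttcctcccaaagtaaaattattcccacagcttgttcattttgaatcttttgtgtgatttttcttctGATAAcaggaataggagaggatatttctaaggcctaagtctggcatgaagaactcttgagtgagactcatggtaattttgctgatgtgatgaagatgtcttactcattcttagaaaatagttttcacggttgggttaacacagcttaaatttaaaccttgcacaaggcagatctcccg
The Dab2 window shown held 1 match and the windows of Cubn, Amn and Lrp2 held 0. The window of the second annotated Dab2 start (chr15:6386498-6386747, plus strand), not shown, also held 0. Among all 32851 promoter windows of this length, which include genes not tested here, 22.6% held at least 1 match. The share was 14.8% of the 2581 windows of genes called higher and 17.5% of the 2826 windows of genes called lower. The share among all tested genes was not counted, so these values do not show whether called genes differ from tested ones. The 4 sequences therefore share no GATAA in this window, which says nothing of binding elsewhere.

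Lysosomal genes followed the same direction. Of 19 tested members 10 rose and 0 fell (median log2 1.32), and 14 were higher and 1 lower than in Epi E4.5. Of the cathepsins, proteases that degrade endocytosed protein, Ctsb, Ctsl, Ctsz, Ctsh and Ctsc were called higher and Ctsd was not. Ctsl had 3611, 3250 and 3588 TPM in PrE E4.5, against 224, 252 and 246 TPM in ICM E3.5 (log2 3.85 ± 0.15, adjusted p = 8.3e-29). Ctsz had 2420, 2484 and 2554 TPM in PrE E4.5, against 88.1, 86.8 and 66.6 TPM in ICM E3.5 (log2 4.94 ± 0.20, adjusted p = 5.3e-27). Ctsh had 243, 172 and 209 TPM in PrE E4.5, against 1.39, 0 and 0 TPM in ICM E3.5 (log2 7.27 ± 0.41, adjusted p = 1.7e-21). These 3 proteases were higher in every PrE E4.5 library than in any ICM E3.5 library. The abundant lysosomal membrane genes Lamp1 and Cd63 were not called. Lamp1 had 632, 536 and 664 TPM in PrE E4.5, against 679, 634 and 616 TPM in ICM E3.5 (adjusted p = 0.80), and Cd63 had 2196, 2052 and 2261 TPM in PrE E4.5, against 1980, 1975 and 2038 TPM in ICM E3.5 (adjusted p = 0.38).

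Of 21 tested basement membrane and collagen processing genes 14 rose, 2 fell and 5 were not called (median log2 2.72), and against Epi E4.5 14 were higher and 4 lower. The laminin chain gene Lama1 had 65.4, 66.5 and 77.5 TPM in PrE E4.5, against 4.34, 5.94 and 7.23 TPM in ICM E3.5 (log2 3.39 ± 0.32, adjusted p = 5.8e-13). Col4a1, the collagen IV chain, had 101, 81.2 and 93.9 TPM in PrE E4.5, against 10.9, 11.7 and 10.7 TPM in ICM E3.5 (log2 2.94 ± 0.31, adjusted p = 1.8e-11). Sparc, a matricellular protein of basement membranes, had 2480, 2686 and 2622 TPM in PrE E4.5, against 217, 209 and 202 TPM in ICM E3.5 (log2 3.62 ± 0.16, adjusted p = 1.4e-25). None of these 3 genes overlapped between the groups. P4hb, which serves prolyl hydroxylase and folds disulfide-bonded proteins, had 6175, 6484 and 6601 TPM in PrE E4.5, against 244, 282 and 237 TPM in ICM E3.5 (log2 4.66 ± 0.15, adjusted p = 1.9e-32). Plod3, a lysyl hydroxylase of collagen, had 144, 85.3 and 166 TPM in PrE E4.5, against 4.54, 3.31 and 3.32 TPM in ICM E3.5 (log2 4.77 ± 0.52, adjusted p = 3.9e-11). The 2 genes that fell were Nid1, the laminin-collagen linker, and Fn1, fibronectin. Nid1 had 3.15, 1.10 and 0.947 TPM in PrE E4.5, against 15.1, 12.4 and 15.9 TPM in ICM E3.5 (log2 -2.58 ± 0.51, adjusted p = 3.4e-05). Fn1 had 1.58, 0 and 0 TPM in PrE E4.5, against 24, 27 and 29.5 TPM in ICM E3.5 (log2 -4.34 ± 0.40, adjusted p = 2.2e-13). The second nidogen, Nid2, moved the other way, with 22.0, 21.5 and 18.2 TPM in PrE E4.5, against 0.788, 0.630 and 0.324 TPM in ICM E3.5 (log2 3.78 ± 0.50, adjusted p = 9.5e-09).

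**Figure D3:**
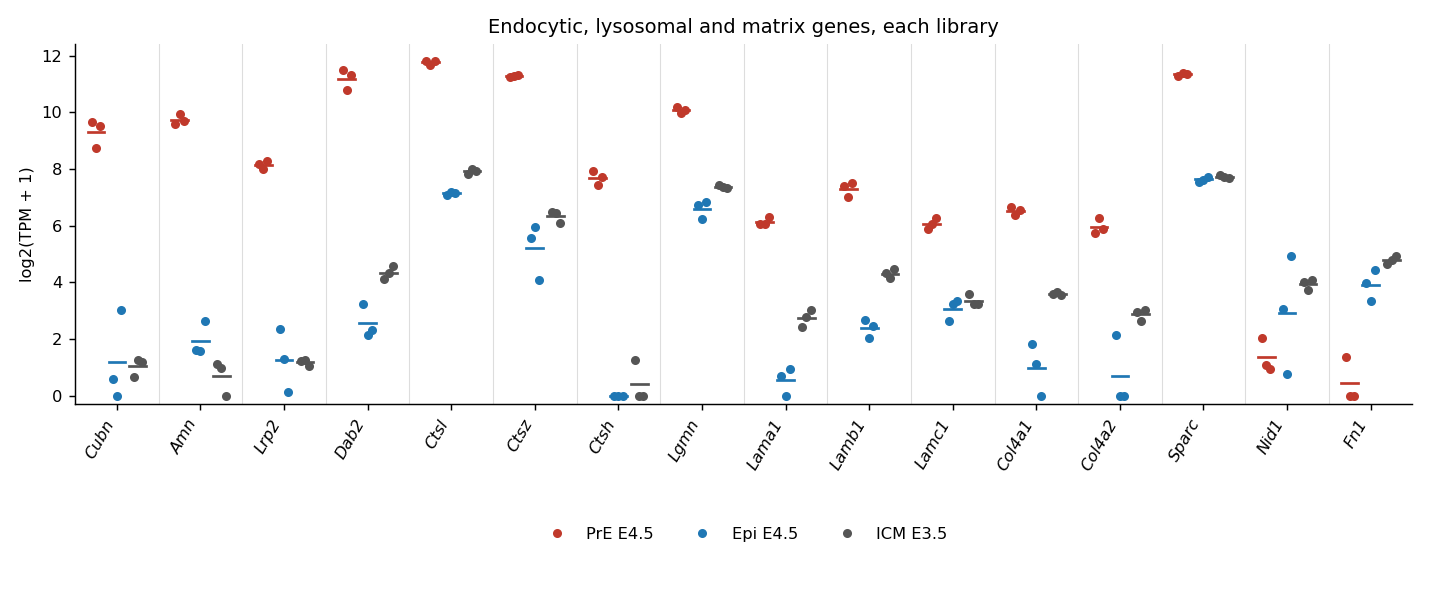
Levels of endocytic receptor, lysosomal and basement membrane genes as log2(TPM + 1), 1 point per library and a line at each group's mean (3 libraries each). Every gene from Cubn to Sparc is higher in all PrE E4.5 libraries than in any ICM E3.5 library, while Nid1 and Fn1 lie lower.

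Secreted and lipoprotein-assembly products of the visceral endoderm rose in 8 of 17 tested cases and fell in 0 (median log2 0.89). The genes that rose were Ttr, Apoa1, Apoa4, Apoe, Apom, Spink1, Pga5 and Mttp. Ttr, the thyroxine carrier transthyretin, had 124, 150 and 143 TPM in PrE E4.5 and was listed at 0 in ICM E3.5. Apoa1, the main HDL apolipoprotein, had 288, 323 and 347 TPM in PrE E4.5, against 7.28, 5.29 and 4.45 TPM in ICM E3.5 (log2 5.60 ± 0.52, adjusted p = 2.5e-13). Spink1, a trypsin inhibitor, had 183, 137 and 180 TPM in PrE E4.5 and was listed at 0 in ICM E3.5. All 3 genes were higher again in PrE E4.75, where Ttr had 1392, 1365 and 1387 TPM (log2 3.31 ± 0.22 against PrE E4.5, adjusted p = 1.7e-17), Apoa1 had 2242, 2265 and 2201 TPM (log2 2.81 ± 0.52, adjusted p = 2.4e-05) and Spink1 had 2421, 2529 and 2569 TPM (log2 3.92 ± 0.48, adjusted p = 3.1e-09). Afp, the fetal serum protein of later visceral endoderm, was at or under 0.812 TPM in all 6 libraries.

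Regulators of the distal and anterior visceral endoderm were split. Of 13 tested members 6 rose and 3 fell. Lefty1, a Nodal antagonist, had 72.0, 86.8 and 70.2 TPM in PrE E4.5, against 1.30, 0.734 and 0 TPM in ICM E3.5 (log2 5.60 ± 0.45, adjusted p = 1.3e-15). Dkk1, a WNT antagonist, had 95.6, 91.5 and 89.2 TPM in PrE E4.5, against 11.2, 11.2 and 13.5 TPM in ICM E3.5 (log2 2.84 ± 0.27, adjusted p = 3.2e-13). Hhex, a homeobox gene of the anterior visceral endoderm, had 120, 110 and 136 TPM in PrE E4.5, against 11, 17.3 and 19.8 TPM in ICM E3.5 (log2 2.88 ± 0.50, adjusted p = 3.5e-06). These 3 were higher in every PrE E4.5 library, and all 3 were also called higher than in Epi E4.5. Cer1, an antagonist of Nodal, BMP and WNT, had 0.566, 0 and 0 TPM in PrE E4.5 and was listed at 0 in ICM E3.5. Of the genes that fell, Gsc was listed at 0 in PrE E4.5, against 30.6, 31.1 and 36.6 TPM in ICM E3.5, and Sfrp1, a secreted WNT inhibitor, had 0.0968, 0.751 and 0.696 TPM in PrE E4.5, against 17.9, 15.3 and 15.9 TPM in ICM E3.5 (log2 -3.55 ± 0.56, adjusted p = 4.4e-07). Otx2, the third, had 10.7, 0 and 5.75 TPM in PrE E4.5, against 16.2, 27.5 and 18.5 TPM in ICM E3.5 (log2 -2.31 ± 0.41, adjusted p = 5.9e-06), a call that was lost in a fit of the 6 libraries alone (adjusted p = 0.16). Gsc, Sfrp1, Otx2 and Cer1 were all called higher in PrE E4.75 than in PrE E4.5, with 14.9 to 23.2, 21.7 to 26.5, 59.5 to 69.1 and 20.1 to 25.9 TPM in PrE E4.75.

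Parietal endoderm genes rose in 5 of 11 cases and fell in 2, the keratins Krt8 and Krt18. With the 6 libraries alone, or without PrE E4.5 replicate 3, 3 were higher. Against Epi E4.5 the list was evenly split, with 4 higher and 4 lower in PrE E4.5. Its median log2 difference there was -0.24, against -0.26 over all genes. Pth1r, the parathyroid hormone receptor of parietal endoderm, had 46.2, 49.5 and 63.6 TPM in PrE E4.5, against 5.96, 5.44 and 7.37 TPM in ICM E3.5 (log2 2.89 ± 0.35, adjusted p = 5.0e-10), and no library overlapped. Vim, the intermediate filament gene of the migrating parietal cells, had 7.37, 1.05 and 4.70 TPM in PrE E4.5, against 0.230, 2.41 and 0.629 TPM in ICM E3.5, and was not called (adjusted p = 0.11); without PrE E4.5 replicate 2 it passed (log2 1.86, adjusted p = 0.030).

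Genes of FGF ligands, receptors and intracellular partners changed in both directions. Of 12 tested genes 7 rose, 4 fell and 1 was not called. The intracellular genes among them were Frs2, which rose, Grb2, which fell, and Ptpn11, which was not called. Fgf4, the ligand that instructs the lineage, had 0.0939, 0 and 0 TPM in PrE E4.5, against 30.4, 34.0 and 35.0 TPM in ICM E3.5 (log2 -5.05 ± 0.32, adjusted p = 1.6e-19); in Epi E4.5 it was 32.5 to 53 TPM. Other ligands moved the opposite way. Fgf5 had 86.2, 67.4 and 90.1 TPM and Fgf8 had 49.2, 35.3 and 59.9 TPM in PrE E4.5, and both were listed at 0 in ICM E3.5. Fgf3 had 36.5, 59.0 and 30.6 TPM in PrE E4.5, against 3.29, 4.20 and 5.02 TPM in ICM E3.5 (log2 3.02 ± 0.47, adjusted p = 3.4e-07), and Fgf10 had 126, 101 and 142 TPM in PrE E4.5, against 23.6, 16.6 and 17.5 TPM in ICM E3.5 (log2 2.62 ± 0.43, adjusted p = 1.3e-06). Fgf5, which is widely used as a marker of the later epiblast, was also higher in PrE E4.5 than in Epi E4.5, where it had 17.4, 19.9 and 23.1 TPM (log2 1.96 ± 0.49, adjusted p = 9.6e-04).

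The receptor genes also moved in both directions. Fgfr1, the receptor shared by all cells of the inner cell mass, had 0.196, 0 and 0 TPM in PrE E4.5, against 13.9, 18.4 and 19.8 TPM in ICM E3.5 (log2 -4.10 ± 0.32, adjusted p = 7.2e-16). Fgfr2, which is enriched in primitive endoderm precursors, had 0.602, 0 and 7.81 TPM in PrE E4.5, against 4.84, 6.11 and 4.6 TPM in ICM E3.5. Its groups overlapped, and although it was called lower (log2 -1.35 ± 0.46, adjusted p = 0.014), the call was lost without PrE E4.5 replicate 1 (adjusted p = 0.097), without PrE E4.5 replicate 2 (log2 -0.71, adjusted p = 0.26) and without ICM E3.5 replicate 2 (adjusted p = 0.052). Fgfr3 had 22.7, 25.3 and 12.3 TPM in PrE E4.5 and was listed at 0 in ICM E3.5. Fgfr4 had 4.85, 13.3 and 6.96 TPM in PrE E4.5, against 0.762, 0.682 and 0.414 TPM in ICM E3.5 (log2 2.44 ± 0.42, adjusted p = 3.2e-06). Fgfr3 thus had the highest TPM of the 4 receptor genes in each PrE E4.5 library, and Fgfr1 in each ICM E3.5 library. Of the intracellular adaptors, Grb2 fell to 0.591, 1.16 and 1.28 TPM in PrE E4.5, against 13.0, 9.57 and 11.1 TPM in ICM E3.5 (log2 -2.61 ± 0.27, adjusted p = 6.3e-12), and Frs2 rose unevenly, with 42.9, 27.3 and 4.96 TPM in PrE E4.5, against 2.17, 2.68 and 3.40 TPM in ICM E3.5 (log2 2.39 ± 0.61, adjusted p = 0.0011, and 0.089 with the 6 libraries alone).

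Targets of FGF and ERK signalling did not move as a block. Of 10 tested 3 rose, 3 fell and 4 were not called. Spry2, a feedback inhibitor, had 0.920, 0.242 and 5.05 TPM in PrE E4.5, against 263, 271 and 261 TPM in ICM E3.5 (log2 -6.77 ± 0.43, adjusted p = 3.3e-19). Dusp6, the ERK phosphatase, had 0.423, 0 and 0 TPM in PrE E4.5, against 5.41, 11.1 and 13.8 TPM in ICM E3.5 (log2 -3.22 ± 0.22, adjusted p = 1.8e-18). These 2 negative regulators had at most 5.05 TPM in any PrE E4.5 library, and both were called higher in PrE E4.75, at 50.2 to 63.1 TPM and 19.0 to 23.2 TPM. Egr1, an immediate early factor, had 70.8, 66.3 and 79.7 TPM in PrE E4.5, against 4.68, 5.17 and 5.18 TPM in ICM E3.5 (log2 3.60 ± 0.34, adjusted p = 5.4e-13). Dusp4 had 23.4, 19.9 and 21.8 TPM in PrE E4.5, against 4.27, 7.82 and 8.71 TPM in ICM E3.5 (log2 1.56 ± 0.41, adjusted p = 0.0014). The calls of Etv5, lower, and Etv4, higher, were lost in a fit of the 6 libraries alone (adjusted p = 0.18 and 0.29), and that of Etv4 also without PrE E4.5 replicate 2 or without ICM E3.5 replicate 1 or 2. Against Epi E4.5 7 of the 10 targets were lower in PrE E4.5 and 1, Dusp4, was higher; without Epi E4.5 replicate 1 these counts were 8 and 0.

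**Figure D4:**
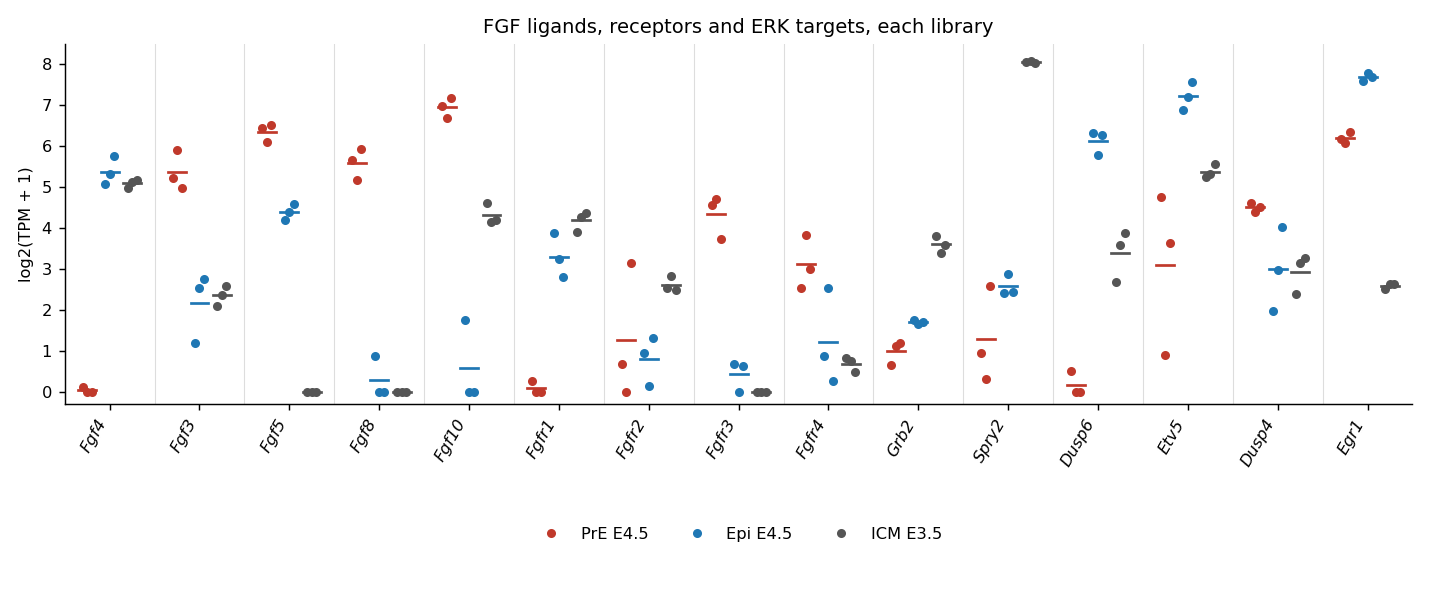
Levels of FGF ligands, receptors, the adaptor Grb2 and ERK targets as log2(TPM + 1), 1 point per library and a line at each group's mean (3 libraries each). Fgf4, Fgfr1, Grb2, Spry2 and Dusp6 are lower in every PrE E4.5 library than in any ICM E3.5 library, while Fgf3, Fgf5, Fgf8, Fgf10, Fgfr3, Fgfr4 and Egr1 are higher in every PrE E4.5 library.

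In the PDGF and KIT group 2 of 9 genes rose and 3 fell. Pdgfa, the ligand of Pdgfra, had 11.2, 9.26 and 2.81 TPM in PrE E4.5, against 22.9, 29.8 and 30.2 TPM in ICM E3.5 (log2 -1.86 ± 0.29, adjusted p = 4.1e-07). The genes called higher, Kit and its ligand Kitl, were low and lost their calls in a fit of the 6 libraries alone (adjusted p = 0.13 and 0.092), and Kitl also without PrE E4.5 replicate 2 (log2 0.66, adjusted p = 0.16).

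Members of the BMP and Nodal pathway changed in both directions, with 5 higher and 5 lower of 20 tested, and 3 higher and 5 lower with the 6 libraries alone. Against Epi E4.5 4 were higher and 8 lower in PrE E4.5. In PrE E4.75 12 of the 20 were called higher and 0 lower than in PrE E4.5, against 13.3% and 7.01% over all genes tested. Tdgf1, the Nodal co-receptor CRIPTO, had 1.26, 0.486 and 0 TPM in PrE E4.5, against 1075, 1029 and 1092 TPM in ICM E3.5 (log2 -9.48 ± 0.21, adjusted p = 1.1e-38). Bmp4 had 2.32, 0.564 and 9.21 TPM in PrE E4.5, against 78.1, 79.4 and 95.2 TPM in ICM E3.5 (log2 -4.5 ± 0.62, adjusted p = 2.0e-08). Gdf3 was listed at 0 in PrE E4.5, against 126, 167 and 121 TPM in ICM E3.5. Nodal itself had 22.3, 5.81 and 21.9 TPM in PrE E4.5, against 0, 0.620 and 0 TPM in ICM E3.5 (log2 3.71 ± 0.44, adjusted p = 4.3e-10). Nodal and its co-receptor gene thus moved in opposite directions, while the ligand genes Bmp4 and Gdf3 fell with Tdgf1. The call of Nodal was lost in the limma fit of the 6 libraries with a replicate block (adjusted p = 0.066). Of 16 WNT pathway genes 4 rose and 0 fell, Dkk1 and Wnt11 among them. With the 6 libraries alone 2 were higher, and up to 2 were lower without PrE E4.5 replicate 1 or 2. Wnt11 had 4.47, 3.47 and 8.09 TPM in PrE E4.5, against 0.0677, 0 and 0 TPM in ICM E3.5 (log2 2.57 ± 0.48, adjusted p = 1.1e-05).

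Chromatin regulators bear on the study's question of bivalent domains. Polycomb genes, which place and read the repressive mark, fell in 9 and rose in 6 of 30 cases (median log2 -0.24). Over all genes tested 18.8% fell and 15.8% rose. The count of 9 ranged over 3 to 10 among the alternatives that kept the minimum difference. Of the core of Polycomb repressive complex 2, Ezh2 had 28.3, 10.6 and 7.58 TPM in PrE E4.5, against 81.1, 83.3 and 85.6 TPM in ICM E3.5 (log2 -2.56 ± 0.27, adjusted p = 1.6e-11), and Suz12 had 8.90, 4 and 3.99 TPM in PrE E4.5, against 46.3, 40.2 and 40.2 TPM in ICM E3.5 (log2 -2.78 ± 0.32, adjusted p = 1.8e-10). Aebp2, an accessory subunit, had 0.925, 3.70 and 0.101 TPM in PrE E4.5, against 17.9, 17.7 and 20.5 TPM in ICM E3.5 (log2 -3.19 ± 0.31, adjusted p = 1.7e-12). The members that rose included Pcgf2 of complex 1, with 32.8, 22.2 and 44.1 TPM in PrE E4.5, against 5.31, 3.71 and 5.14 TPM in ICM E3.5 (log2 2.53 ± 0.41, adjusted p = 9.1e-07). Ezh2 did not pass the test against Epi E4.5 (23.6, 5.63 and 19.8 TPM, adjusted p = 0.87), whereas Suz12 was lower in PrE E4.5 than in Epi E4.5 (log2 -2.64 ± 0.32, adjusted p = 1.1e-09). Of 9 demethylases of H3K4 and H3K27 5 fell and 1, Phf8, rose. Kdm5b, an H3K4 demethylase, had 5.13, 1.10 and 4.68 TPM in PrE E4.5, against 71.0, 67.1 and 68.1 TPM in ICM E3.5 (log2 -4.06 ± 0.25, adjusted p = 5.7e-20). Kdm6b, an H3K27 demethylase, had 4.70, 0.163 and 1.31 TPM in PrE E4.5, against 22.1, 24.1 and 21.2 TPM in ICM E3.5 (log2 -3.24 ± 0.33, adjusted p = 6.9e-12). Neither overlapped between groups. The groups of Phf8 overlapped, and its call was lost without PrE E4.5 replicate 1 (log2 0.49, adjusted p = 0.40), without ICM E3.5 replicate 1 (log2 1.00, adjusted p = 0.10) and without ICM E3.5 replicate 3 (adjusted p = 0.060). Ezh2, Suz12, Kdm5b and Kdm6b were all called higher in PrE E4.75 than in PrE E4.5.

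Of 15 genes of the H3K4 methyltransferase complexes 5 rose and 2 fell, or 1 fell without PrE E4.5 replicate 1 or 3 or ICM E3.5 replicate 3. Against Epi E4.5 0 of the 15 were higher and 5 lower in PrE E4.5, or 4 lower without Epi E4.5 replicate 1. Dpy30, a shared subunit, had 216, 209 and 204 TPM in PrE E4.5, against 698, 704 and 688 TPM in ICM E3.5 (log2 -1.73 ± 0.08, adjusted p = 1.7e-25), and Men1, the menin gene, had 49.9, 43.8 and 39.1 TPM in PrE E4.5, against 5.48, 9.78 and 11.9 TPM in ICM E3.5 (log2 2.22 ± 0.44, adjusted p = 3.0e-05). Among 9 DNA methylation genes 4 rose and 3 fell, or 1 fell without PrE E4.5 replicate 1. Against Epi E4.5 1 of the 9 was higher and 4 were lower in PrE E4.5, or 2 and 5 without Epi E4.5 replicate 1. The de novo methyltransferase gene Dnmt3a had 39.5, 40.2 and 36.9 TPM in PrE E4.5, against 4.43, 7.95 and 6.12 TPM in ICM E3.5 (log2 2.51 ± 0.18, adjusted p = 1.4e-17), and its cofactor Dnmt3l had 195, 232 and 201 TPM in PrE E4.5, against 47.6, 42.0 and 30.4 TPM in ICM E3.5 (log2 2.38 ± 0.39, adjusted p = 1.1e-06). Both were higher in every PrE E4.5 library. Dnmt1, the maintenance enzyme, had 26.1, 0.824 and 13.0 TPM in PrE E4.5, against 5.52, 11.5 and 10.2 TPM in ICM E3.5 and was not called (adjusted p = 0.92). Tet2, a 5-methylcytosine dioxygenase, fell to 6.12, 3.97 and 4.37 TPM in PrE E4.5, against 34.5, 38.8 and 30.7 TPM in ICM E3.5 (log2 -2.63 ± 0.31, adjusted p = 2.8e-10).

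Cholesterol synthesis was the list with the highest share of members called higher, 20 of 21, with 0 lower and a median log2 difference of 2.63. Fdft1, squalene synthase, had 1177, 1212 and 1096 TPM in PrE E4.5, against 34.7, 38.2 and 30.6 TPM in ICM E3.5 (log2 5.04 ± 0.18, adjusted p = 3.8e-30). Cyp51, lanosterol demethylase, had 171, 85.0 and 110 TPM in PrE E4.5, against 1.10, 1.02 and 0.781 TPM in ICM E3.5 (log2 5.91 ± 0.29, adjusted p = 1.1e-23). Sc5d, a late desaturase of the pathway, had 197, 99.2 and 144 TPM in PrE E4.5, against 1.40, 2.61 and 1.76 TPM in ICM E3.5 (log2 5.63 ± 0.36, adjusted p = 4.9e-19). In each case the lowest PrE E4.5 library lay far above the highest ICM E3.5 library. Hmgcs1, at the head of the pathway, had 66.0, 10.5 and 50.4 TPM in PrE E4.5, against 16.4, 19.2 and 19.0 TPM in ICM E3.5, and was not called (adjusted p = 0.067); without PrE E4.5 replicate 2 it passed (log2 1.62, adjusted p = 8.3e-05). Against Epi E4.5 13 of the 21 genes were higher and 0 lower.

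Glycolytic genes rose in 12 of 16 cases and fell in 3, but a like level stood in the same-day epiblast. Ldha, lactate dehydrogenase, had 1198, 1196 and 1217 TPM in PrE E4.5, against 46.8, 40.4 and 42.1 TPM in ICM E3.5 (log2 4.77 ± 0.12, adjusted p = 9.4e-37). Eno1, enolase, had 3920, 3941 and 4375 TPM in PrE E4.5, against 393, 384 and 379 TPM in ICM E3.5 (log2 3.40 ± 0.09, adjusted p = 1.3e-34). In Epi E4.5 Ldha had 1059 to 1109 TPM and Eno1 4543 to 4837 TPM, and neither passed the test between PrE E4.5 and Epi E4.5 (log2 0.15 ± 0.12 and -0.20 ± 0.09). Over the list 3 members were higher and 3 lower in PrE E4.5 than in Epi E4.5, and 2 and 2 without Epi E4.5 replicate 1. Pfkl, the liver phosphofructokinase, was higher than in either, with 396, 277 and 283 TPM in PrE E4.5, against 17.6, 26.3 and 27.5 TPM in ICM E3.5 (log2 3.69 ± 0.18, adjusted p = 4.7e-24) and 60.7, 44.9 and 80.8 TPM in Epi E4.5 (log2 2.36 ± 0.18, adjusted p = 3.8e-16). The 3 genes that fell were the hexokinases Hk1 and Hk2 and the glucose carrier Slc2a1. Hk2 had 2.97, 4.99 and 3.90 TPM in PrE E4.5, against 19.2, 12 and 13.1 TPM in ICM E3.5 (log2 -1.66 ± 0.30, adjusted p = 5.8e-06). The call of Slc2a1 (log2 -1.01 ± 0.21) was lost without PrE E4.5 replicate 3 (log2 -0.82) or ICM E3.5 replicate 3 (log2 -0.96), and that of Hk1 after quantile normalization.

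Nutrient carriers rose in 11 of 20 cases and fell in 3. The amino acid exchangers Slc7a7 and Slc7a8 had 726, 783 and 693 TPM and 185, 259 and 237 TPM in PrE E4.5, against at most 6.35 and 0.797 TPM in any ICM E3.5 library (log2 7.01 ± 0.24 and 7.11 ± 0.48, adjusted p = 9.3e-31 and 3.6e-18). Slc40a1, the iron exporter ferroportin, had 204, 166 and 200 TPM in PrE E4.5 and was listed at 0 in ICM E3.5, while Tfrc, the transferrin receptor that brings iron in, was listed at 0 in PrE E4.5, against 11.1, 12 and 11.3 TPM in ICM E3.5. Exporter and importer of iron thus moved in opposite directions. Fabp5, a fatty acid binding protein, had 2.51, 8.59 and 1.33 TPM in PrE E4.5, against 546, 557 and 586 TPM in ICM E3.5 (log2 -7.04 ± 0.57, adjusted p = 1.6e-15).

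Epithelial polarity and junction genes fell in 9 and rose in 5 of 23 cases, against 18.8% and 15.8% over all genes tested. Besides Cldn6, the apical polarity gene Crb3 rose, with 108, 178 and 109 TPM in PrE E4.5, against 8.69, 6.70 and 8.12 TPM in ICM E3.5 (log2 3.87 ± 0.41, adjusted p = 1.6e-11). Cldn3 had 0, 0.249 and 0.324 TPM in PrE E4.5, against 12.9, 5.89 and 3.59 TPM in ICM E3.5 (log2 -2.69 ± 0.35, adjusted p = 5.6e-09), and Cldn4 was listed at 0 in PrE E4.5, against 7.11, 6.49 and 6.07 TPM in ICM E3.5. Of these 3 claudins, Cldn6 was abundant in PrE E4.5 and Cldn3 and Cldn4 were at or near 0. In the secretory pathway 7 of 22 genes rose and 3 fell. Sec61a1, the channel of the translocon, had 1770, 1995 and 2102 TPM in PrE E4.5, against 56.0, 67.3 and 66.1 TPM in ICM E3.5 (log2 4.93 ± 0.15, adjusted p = 5.0e-33), whereas the chaperone Hspa5 had 893, 432 and 704 TPM in PrE E4.5, against 602, 630 and 638 TPM in ICM E3.5 (adjusted p = 0.87).

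Of 16 mitotic genes 3 rose and 3 fell, shares near those over all genes (15.8% and 18.8%), and with the 6 libraries alone 2 were higher and 0 lower. Ccnb1, cyclin B1, had 1295, 1097 and 1370 TPM in PrE E4.5, against 379, 386 and 372 TPM in ICM E3.5 (log2 1.72 ± 0.11, adjusted p = 2.1e-19). Of 12 immediate early and heat shock genes 2 rose, Egr1 and Atf3, a share near that over all genes, and 1 fell. The call of the gene that fell was lost with the 6 libraries alone and without PrE E4.5 replicate 2. Of 12 p53 targets 6 rose and 1 fell. Cdkn1a, the inhibitor p21, had 349, 430 and 333 TPM in PrE E4.5, against 6.76, 8.90 and 6.46 TPM in ICM E3.5 (log2 5.48 ± 0.46, adjusted p = 9.2e-15), and 139, 270 and 161 TPM in Epi E4.5 (adjusted p = 0.077 between PrE E4.5 and Epi E4.5). Against Epi E4.5 limma called 0 p53 targets higher in PrE E4.5 and 3 lower, or 4 lower without Epi E4.5 replicate 1. Over all genes tested 11.4% were higher and 19.2% lower than in Epi E4.5.

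**Figure D5:**
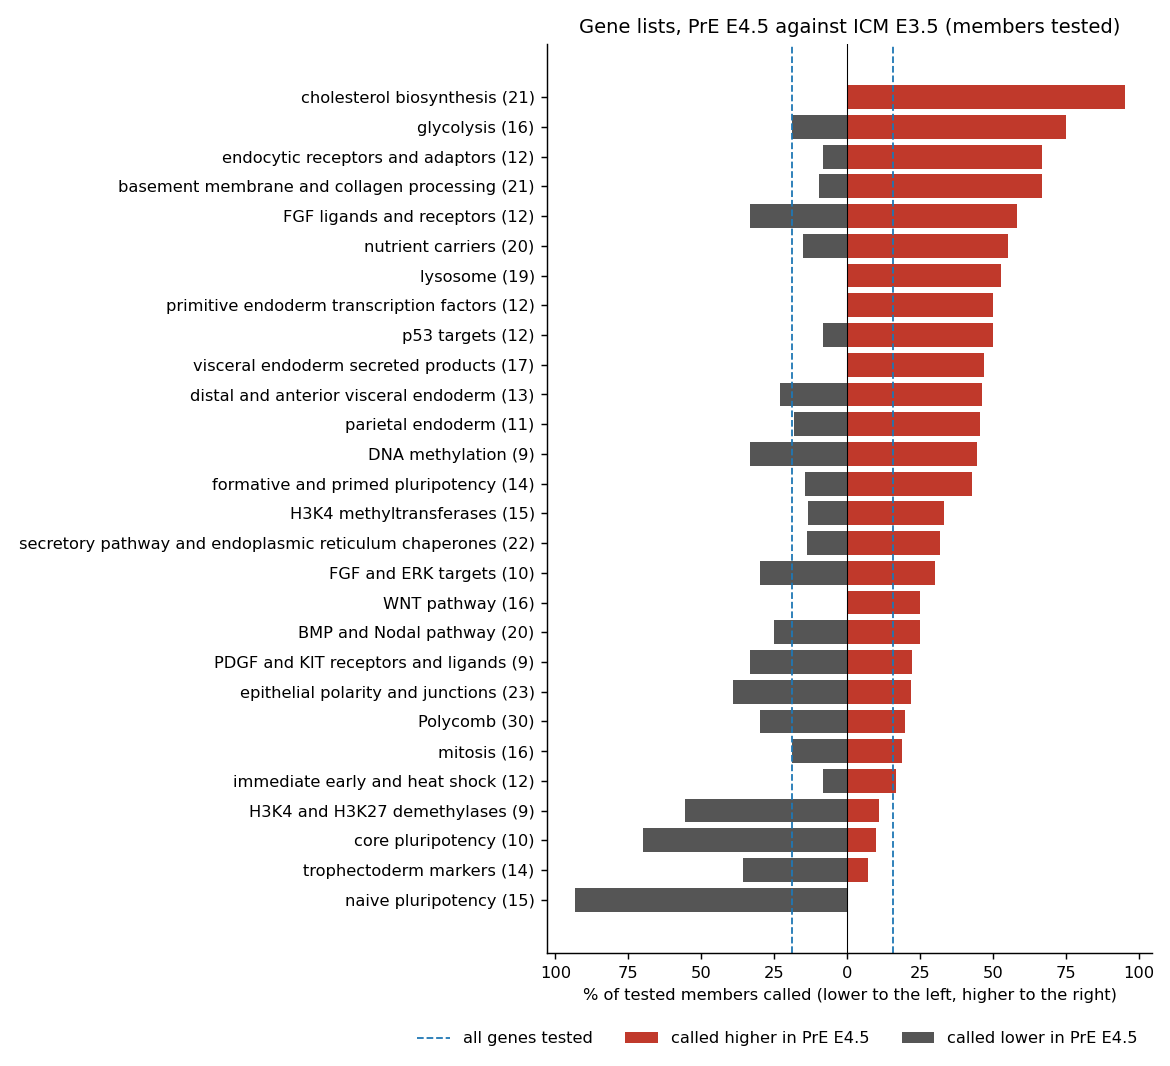
Share of the tested members of each gene list (number in brackets) that limma called higher (right) or lower (left) in PrE E4.5 than in ICM E3.5, for lists with at least 9 tested members. Dashed lines give the shares over all genes tested, 15.8% higher and 18.8% lower; cholesterol synthesis stands at 20 of 21 higher and naive pluripotency at 14 of 15 lower.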

How the data were processed

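Values were TPM per gene (transcript abundance per library total) as the authors deposited them, 1 table for 67 wild-type libraries. The submitters' processing notes name HISAT2 2.2.1, StringTie 2.2.1, Cufflinks and the mm10 build; which tool made which step, the annotation and the strand setting are not given in the sources used here. All columns matched a sample (0 did not). Rn45s was dropped and each column rescaled to 1e+06. A gene had to reach 1 TPM in 3 or more libraries, which left 15699 genes, tested with limma 3.58.1 in R 4.3.3 on log2(TPM + 1), 1 mean per group over 23 groups, a mean-variance trend and Benjamini-Hochberg adjustment over all genes tested; log2(TPM + 1) understates the change of low genes. The labels call the 3 samples of a group biological replicates. The procedure was tested on simulated data for this comparison: 72% of genes changed by 1.5 and 99% of genes changed by 3 on the log2 scale were recovered (100 each among 15699), with 13 false calls. The simulated noise was normal, with 1 spread per gene pooled over all groups. Changed genes were drawn only from those with a mean log2(TPM + 1) above 3 in ICM E3.5. The greater unevenness of the PrE E4.5 libraries was not simulated, so these rates need not hold for them or for low genes.

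Genes named were, per list, up to 3 called members per direction of largest difference and up to 2 uncalled members of highest TPM, the 3 markers, and 12 genes per direction over all genes (leaving out predicted, Y-linked, ribosomal pseudogene and mitochondrial genes). A further 22 genes, and Afp, Cdx2 and Elf5, were named with their values known. Members and lists were chosen with earlier results of these data known. Alternatives changed the pseudocount (0.1 TPM), the filter, the scaling, the libraries fitted, sample weights, a replicate block, the minimum difference and each replicate left out. Some genes that the rule would name are not reported here.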

Additional observations from a re-analysis of the deposited data

Results flagged for a closer look

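Rn45s, the ribosomal precursor gene that was removed before testing, held 15.1%, 20.8% and 16.7% of the deposited TPM in the 3 PrE E4.5 libraries, against at most 0.601% in ICM E3.5.

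Some of the followed genes were called in opposite directions in the 2 lineages of E4.5, each against the same ICM E3.5 libraries. They were picked for those opposite calls and for a call between PrE E4.5 and Epi E4.5. The sign and a minimum size of the difference between the lineages thus follow from the choice and are no separate support. That difference (PrE E4.5 minus Epi E4.5) is given only for its size. Called higher in PrE E4.5 and lower in Epi E4.5 than in ICM E3.5 were the factors Gata4 (log2 difference between the lineages 5.75), Hhex (4.87) and Foxq1 (3.51), the adaptor Dab2 (8.62), the matrix genes Lama1 (5.59), Lamb1 (4.92) and Col4a1 (5.56), the ligand Fgf10 (6.36), the WNT antagonist Dkk1 (6.30), and the secreted or lysosomal products Pga5 (9.24), Apoa1 (7.20) and Ctsz (6.08). Called lower in PrE E4.5 and higher in Epi E4.5 were the ERK targets Dusp6 (-5.96) and Etv5 (-4.12), the chromatin genes Kdm2b (-5.18) and Tet1 (-3.30; its call against ICM E3.5 was lost without PrE E4.5 replicate 1, at a log2 difference of -0.97, or replicate 3, at -0.92), the claudin Cldn3 (-5.03), the factors Otx2 (-4.91) and Zfp42 (-4.09), the ligand Pdgfa (-2.94) and the keratin Krt18 (-2.72). Which of these would hold in other libraries was not tested.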

How the results depend on the processing

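The counts of genes called between PrE E4.5 and ICM E3.5 stayed within 1.5 times the reported 2480 higher and 2945 lower under every alternative but 1. The exception was the fit of the 6 libraries alone with a replicate block, with 1360 higher and 1601 lower; the numbers are shared by the labels, but same-numbered libraries did not deviate together (correlations -0.01382, -0.02397 and -0.0008493), so the numbers were not taken as pairs. Without the block the 6 libraries alone gave 1878 and 2230. Leaving out each library in turn gave 2317 to 2649 higher and 2657 to 3050 lower, and 233 to 240 called genes over the gene lists. Against Epi E4.5 the same exercise gave 1585 to 1880 higher and 2611 to 3461 lower, and between PrE E4.75 and PrE E4.5 1722 to 2290 higher and 962 to 1217 lower. Of 215 genes followed, 40 lost their call with the block, 21 with the 6 libraries alone and 2 to 8 without 1 library. Over the alternatives that kept the minimum difference, list counts that moved by over 1.5 times included Polycomb lower (9, range 3 to 10), BMP and Nodal higher (5, range 1 to 6), formative higher (6, range 3 to 6), mitosis lower (3, range 0 to 4), WNT higher (4, range 2 to 6) and PDGF and KIT lower (3, range 0 to 3), while cholesterol synthesis higher (20) ranged over 18 to 21. Dnmt1, not called at a log2 difference of -0.13, stood between -0.94 without PrE E4.5 replicate 1 and 1.00 without PrE E4.5 replicate 2 (adjusted p = 0.029 for the second); replicate 2 had 0.824 TPM against 26.1 and 13.0 TPM in the other two. With TPM the reads behind a value are unknown, so how far a gene listed at 0 lies below detection is unknown.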

Other observations

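Members of 4 gene families were followed after their values had been seen. Carbonic anhydrases, which interconvert carbon dioxide and bicarbonate, rose in 5 and fell in 3 of 14 cases, against 15.8% and 18.8% over all genes tested. Car2 had 348, 284 and 364 TPM in PrE E4.5, against 0.723, 3.04 and 2.82 TPM in ICM E3.5 (limma log2 6.79 ± 0.18, adjusted p = 8.5e-36), and Car4 had 287, 307 and 260 TPM in PrE E4.5, against 0.159, 0.512 and 0 TPM in ICM E3.5 (log2 7.88 ± 0.16, adjusted p = 3.9e-41). Car9 was lower, with 2.51, 0 and 1.44 TPM in PrE E4.5, against 17.4, 18.1 and 21.0 TPM in ICM E3.5 (log2 -3.27 ± 0.46, adjusted p = 3.0e-08).

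The X-linked Bex and Tceal genes rose in 6 of 11 cases and fell in 0. Tceal9 had 375, 224 and 334 TPM in PrE E4.5, against 2.43, 3.51 and 3.57 TPM in ICM E3.5 (limma log2 6.20 ± 0.15, adjusted p = 3.3e-37), and Bex3 had 688, 582 and 745 TPM in PrE E4.5, against 16.1, 17.5 and 18.7 TPM in ICM E3.5 (log2 5.19 ± 0.11, adjusted p = 4.6e-40). Against Epi E4.5 1 member of the family was higher and 4 were lower in PrE E4.5.

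The multicopy families Pramel and Trim43 fell in 4 of 5 and 3 of 3 cases. Their summed levels were 3.46 to 6.95 TPM and 0 TPM in PrE E4.5, against 808 to 861 TPM and 263 to 297 TPM in ICM E3.5. How the counting divided reads among near-identical copies is not given, so single members are uncertain.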
